A study of Mus musculus with 2 samples.

Results

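Conventional CD4 T cells are the helper cells of the T cell compartment. They recognise peptides on MHC class II, and they act on other cells through surface ligands such as CD40 ligand (Cd40lg) and through secreted cytokines, among them interferon gamma in T helper 1 cells and interleukin 17 in T helper 17 cells. They are set apart from regulatory CD4 T cells by the absence of the transcription factor Foxp3. Here they were the cells with at least 2 unique molecular identifiers (UMIs, each counting 1 captured RNA molecule) of the CD3 chain genes Cd3d, Cd3e and Cd3g together, at least 1 UMI of Cd4, and no UMI of Cd8a, Cd8b1, Foxp3, Csf1r (macrophages), Cd79a (B cells) or Siglech (plasmacytoid dendritic cells). Cells with 4 or more of 10 genes of cell division detected were left out. The rule found 392 cells under lenvatinib and 516 under combo, 908 of the 25814 immune cells that passed the filter. The cells were thus chosen by their measured UMIs of these genes, whose levels are a description and not a result.

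The cells came from tumors of wild-type C57BL/6J male mice, aged 6 to 8 weeks, in which liver cancer was induced by hydrodynamic injection of plasmids that overexpress MYC and target Trp53 by CRISPR, together with a sleeping beauty transposase. From 12 days after injection all mice received lenvatinib, an inhibitor of several receptor tyrosine kinases, at 30 mg/kg for 25 days, so that tumors were lenvatinib resistant. Then 1 group stayed on lenvatinib at 30 mg/kg and the other received lenvatinib at 30 mg/kg with palbociclib, a CDK4/6 inhibitor, at 100 mg/kg (combo). Live CD45+ cells, those of the immune lineage, were sorted and profiled by droplet-based 3′ scRNA sequencing, and 1 library was made per group. The number of mice behind each library is not given in the sources used here. There was therefore no test between the groups, and every interval below is a 95% interval of counting error only. With 1 library each, treatment and library cannot be told apart, nor can mice, tumors or sorts.

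The lenvatinib library held 98107503 UMIs in 14509 barcodes and the combo library 93583402 UMIs in 11989 barcodes. Conventional CD4 T cells had a median of 4421 UMIs under lenvatinib and 4687 under combo, with a median of 1779.5 and 1649 genes, so that the depth of the cells compared was close. The libraries shared 49 barcodes, and 0 and 2 conventional CD4 T cells carried one. Other cells' RNA differed between the libraries. The median cell held 1 UMI of 10 neutrophil genes under lenvatinib and 9 under combo, and all 10 genes were detected in each library. A UMI of at least 1 of the NK cell genes Klra8, Klra4, Klra7, Ncr1 and Klrb1c was found in 101 cells under lenvatinib (25.8%) and 62 under combo (12.02%). Cells of the B lineage, gated by Cd79a, Cd79b and Ms4a1 without CD3 genes, had a median of 3313.5 and 3413.5 UMIs and are given below as the background for T cell genes.

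The rule did not use the label's other markers, Cd40lg, Tnfrsf4 and Icos. They were chosen with earlier results of these data known, so their levels describe the label and do not test it. Cd40lg (chrX:57212143-57224042 in mm10, plus strand), which encodes the helper ligand that activates B cells and dendritic cells, stood at 153 CPM (its UMIs scaled to the total UMIs of the gate, summed over cells) under lenvatinib and 178 under combo. CD8 T cells held 3.88 and 8.03 CPM of it, the Foxp3-positive CD4 T cells 14.1 and 32.3, and B cells had no UMI in either library. Tnfrsf4 (chr4:156013843-156016612, plus strand), which encodes the costimulatory receptor OX40, stood at 271 and 297 CPM, against 10.1 and 12.4 in CD8 T cells and 1055 and 937 in Foxp3-positive cells. Icos (chr1:60977927-61000320, plus strand), another costimulatory receptor of activated T cells, stood at 377 and 394 CPM, against 82.3 and 96.8 in CD8 T cells. Without thinning, Icos was detected in 62.2% and 65.3% of the cells, and in 77.8% and 76.9% of 63 and 13 cells with exactly 1 Foxp3 UMI. High Cd40lg therefore set the conventional CD4 T cells apart from CD8 T and Foxp3-positive cells alike. Tnfrsf4 was higher still in the Foxp3-positive cells, and Icos did not set the cells apart from those with 1 Foxp3 UMI. The constant chain of the T cell receptor, Trac, was detected in 86.7% and 90.1% of the cells.

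**Figure D1:**
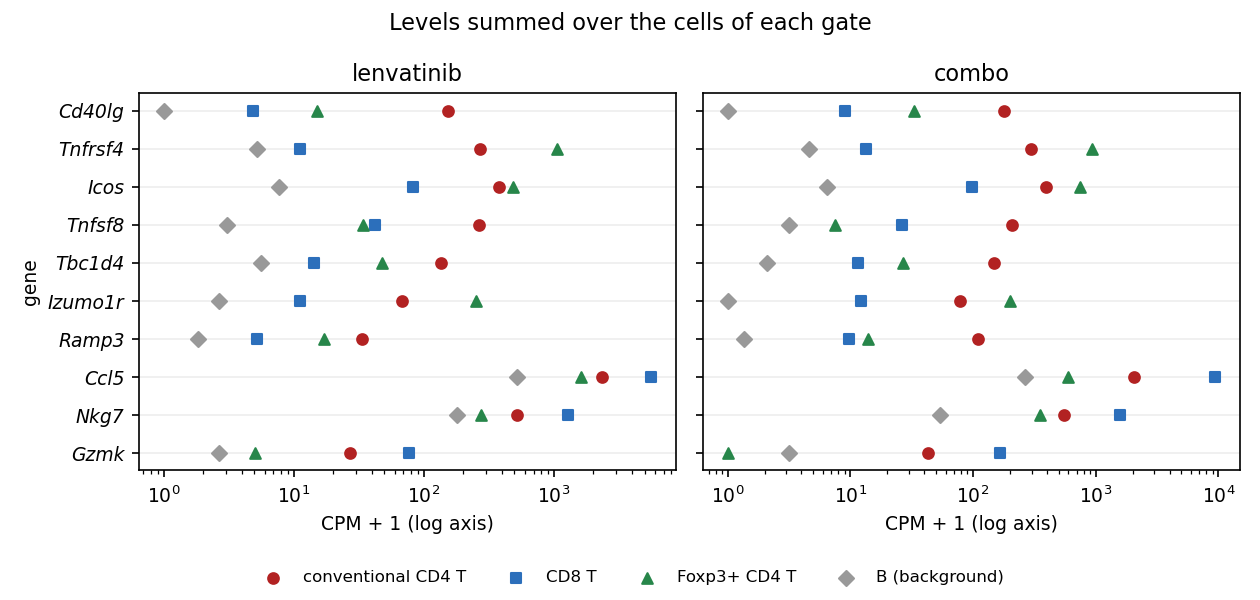
Level of 10 genes in 4 gates under lenvatinib (left) and combo (right). The x axis is CPM plus 1 on a log scale, summed over all cells of a gate, with 1 point per gate. Cd40lg in conventional CD4 T cells, at 153 and 178 CPM, lies to the right of the other 3 gates, and Ccl5 and Nkg7 are highest in CD8 T cells.

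To compare shares of cells with a UMI at equal depth, each cell was thinned to 2000 UMIs, and 25 and 9 shallower cells were left out. At this depth 73.8% of conventional CD4 T cells (69.0 to 78.3%) under lenvatinib and 70.8% (66.6 to 74.7%) under combo had a UMI of Cd40lg, Tnfrsf4 or Icos, and their ratio was 0.959 (0.817 to 1.13). In B cells the same share was 1.81% and 1.61%. The shares in the T cells overlapped between the libraries. Without thinning, 86.7% and 87.2% had at least 1 of the 3 genes, and 10.2% (7.39 to 13.6%) and 21.1% (17.7 to 24.9%) had all 3.

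The gate keeps cells at the edge of detection. Of the conventional CD4 T cells, 56.6% under lenvatinib and 55.6% under combo had exactly 1 Cd4 UMI. Those cells carried Cd40lg in 34.7% and 47.7%, against 38.0% and 49.4% of all members of the gate. They make up most of that whole, so the 2 sets of shares are not independent. T cells without any Cd4 or Cd8 UMI, just outside the gate, carried Cd40lg in 10.6% and 18.0% of 1801 and 1469 cells. They can include CD4 T cells in which the Cd4 RNA was missed. Among T cells with a Cd8 UMI, 2.30% and 3.68% also had a Cd4 UMI, and 1.69% and 0.958% of B cells had one. Cells with exactly 1 Foxp3 UMI, also outside, numbered 63 and 13 and carried Cd40lg in 6.35% and 15.4%.

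Conventional CD4 T cells made up 2.76% (2.50 to 3.04%) of kept cells under lenvatinib and 4.44% (4.08 to 4.83%) under combo, a ratio of 1.61 (1.41 to 1.84). Of all gated T cells they were 5.68% (5.15 to 6.25%) and 10.1% (9.30 to 10.98%), a ratio of 1.78 (1.56 to 2.04). The intervals of the 2 libraries did not overlap on either denominator. CD8 T cells were 25.2% and 24.3% of kept cells, a ratio of 0.967 (0.920 to 1.02), and T cells without a Cd4 or Cd8 UMI 12.7% in each library, a ratio of 0.997. Foxp3-positive CD4 T cells were 1.30% (184 cells) and 0.224% (26 cells), a ratio of 0.173 (0.110 to 0.261). Within T cells of 2000 to 4000 UMIs, conventional CD4 T cells were 10.5% and 15.0%, within 4000 to 6000 UMIs 8.18% and 12.3%, and above 8000 UMIs 2.26% and 5.83%. Below 2000 UMIs they were 6.46% and 6.29%, of 387 and 143 T cells. When every cell was thinned to 2000 UMIs before the gate, the shares of kept cells were 2.04% and 2.79% and their ratio was 1.37 (1.15 to 1.63).

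**Figure D2:**
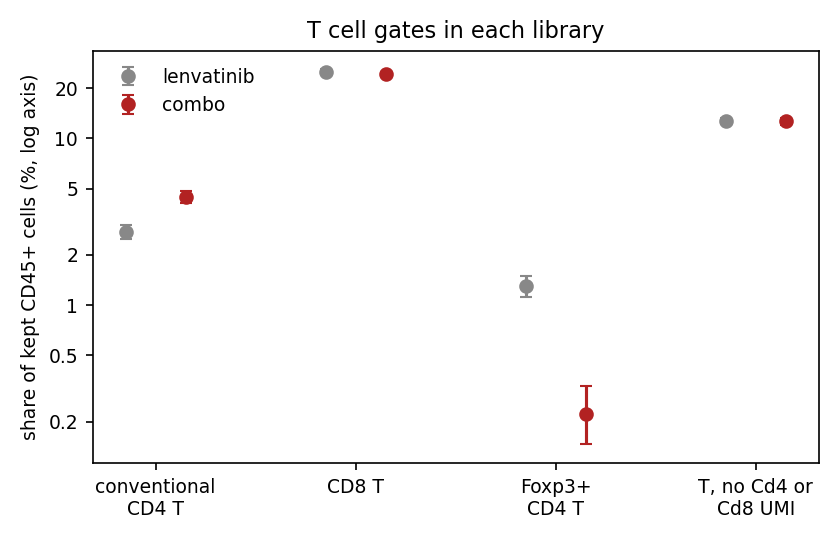
Share of kept CD45+ cells in 4 T cell gates, on a log axis, under lenvatinib (gray) and combo (red). Points are shares of 14201 and 11613 cells and bars are exact 95% intervals of counting error. Conventional CD4 T cells lie at 2.76% and 4.44%, and Foxp3-positive CD4 T cells at 1.30% and 0.224%.

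Genes that were at least 2 times as high in conventional CD4 T cells as in CD8 T cells of the same library, in both libraries, numbered 92 of 5331 genes, or 1.73%. These were genes with a mean level of at least 20 CPM over the libraries, both in conventional CD4 T cells and averaged with CD8 T cells. There were 20 at 0.5 times or less, or 0.375%. The floor in conventional CD4 T cells leaves out genes low in them, so the 92 and the 20 are not compared. The 92 include Cd4, which the rule required in these cells and which the CD8 T gate excluded. Ranked by the lower of the 2 libraries' ratios, among genes with a UMI in CD8 T cells of each library, the 10 highest were Tnfrsf4, Cd40lg, Ccl1, Gpm6b, Tiam1, Tnfsf11, Tbc1d4, Ramp3, Spry1 and Izumo1r. Tnfrsf4 was 26.7 and 23.9 times as high as in CD8 T cells, and Cd40lg 39.5 and 22.2 times. Tnfsf11, which encodes the cytokine RANKL, was 13.0 and 11.03 times as high, at 83.0 and 72.1 CPM. Tbc1d4, which encodes a Rab GTPase-activating protein, was 10.2 and 13.8 times as high, at 135 and 147 CPM. Izumo1r, which encodes the folate receptor family member FR4, was 6.57 and 6.99 times as high, and higher again in the Foxp3-positive cells. Ccl1, a chemokine gene, rested on few cells, since 83.0% and 63.0% of its UMIs came from 1 cell in each library.

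Some other costimulation genes were also higher than in CD8 T cells. Tnfsf8, which encodes CD30 ligand, stood at 264 and 207 CPM, 6.38 and 8.09 times the level in CD8 T cells. Il7r, which encodes the receptor of the survival cytokine interleukin 7, stood at 543 and 689 CPM, 2.97 and 2.45 times the CD8 level. Of the 11 costimulation genes at the floor of 20 CPM, 6 were at least 2 times as high as in CD8 T cells in both libraries, against 1.73% of all genes compared. These 6 include Cd40lg, Tnfrsf4 and Icos, the label markers already described. Cd28 and Cd44 were under 2 times as high, and Cd27, at 0.583 and 0.688 times, was lower. On the other side stood 3 genes of the cytotoxic program. Ccl5, a chemokine gene, was 0.418 and 0.216 times its CD8 level, at 2357 and 2038 CPM, Nkg7, a granule gene, 0.408 and 0.349 times, at 523 and 548 CPM, and Gzmk, which encodes granzyme K, 0.342 and 0.253 times. These were the 3 of 11 cytotoxic genes at 0.5 times or less in both libraries, against 0.375% of all genes compared. The other genes of the list did not reach that cut.

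Among helper programs, T helper 1 genes were the most frequent. Ifng, or Tbx21 which encodes the transcription factor T-bet, was detected in 42.1% (37.1 to 47.2%) of cells under lenvatinib and 47.9% (43.5 to 52.3%) under combo, against 12.5% and 3.26% of B cells. Il17a was detected in 4.85% (2.94 to 7.47%) and 1.94% (0.933 to 3.54%), and Il4, Il5 or Il13 in 1.53% and 1.94%. Il10 was detected in 4.85% and 4.46%. Il21 or Cxcr5, genes of follicular helper cells, were detected in 4.08% and 2.91%, which is below the 23.1% and 26.4% of B cells, where Cxcr5 is high. Il21 alone was detected in 2.04% and 1.94%, and the Cxcr5 part of the share cannot be set against B cells, which use the gene. These shares are not thinned.

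T helper 1 genes went both ways. Ifng stood at 166 CPM (148 to 184) and 249 (231 to 268), a ratio of 1.51 (1.32 to 1.72), and CD8 T cells had a ratio of 1.36. Cxcr3, which encodes a chemokine receptor of type 1 T cells, stood at 98.3 and 146 CPM, a ratio of 1.48 (1.25 to 1.76), and Stat4, which encodes a transcription factor downstream of interleukin 12, at 118 and 187 CPM, a ratio of 1.58 (1.36 to 1.85). Tbx21 was at 46.7 and 39.6 CPM with an interval that spans 1 (0.639 to 1.13). The receptor gene Il12rb1 had a ratio of 0.432 (0.284 to 0.649), at 32.4 and 14 CPM, and Il18r1 and Il18rap had ratios of 0.793 and 0.610. Of the 9 T helper 1 genes at the floor, 0 reached 2 and 1 lay at 0.5 or less, against 4.01% of all genes tested. The median ratio of the 9 was 0.848, close to the 0.850 of all genes tested. The list as a whole did not stand apart.

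Across all 5536 genes with a mean level of at least 20 CPM in the 2 libraries of conventional CD4 T cells, the median ratio of combo to lenvatinib was 0.850 (-0.23 on the log2 scale), and 0.899 for the same genes in CD8 T cells. Ribosomal protein genes took 22.6% of the cells' UMIs under lenvatinib and 28.9% under combo. The ratio was 2 or more for 70 genes, or 1.26%, and 0.5 or less for 222 genes, or 4.01%. With mitochondrial, ribosomal and hemoglobin genes left out of the total, the counts were 107 and 171, and the median was 0.917. These are counts past a fold in a pair of libraries and not tested calls. Of the 70 genes, 58 were over 2 times as high in the B, neutrophil, or monocyte and macrophage gate of the same library, and 12 were not. Of the 222 genes, 30 were higher in such a gate and 192 were not.

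**Figure D3:**
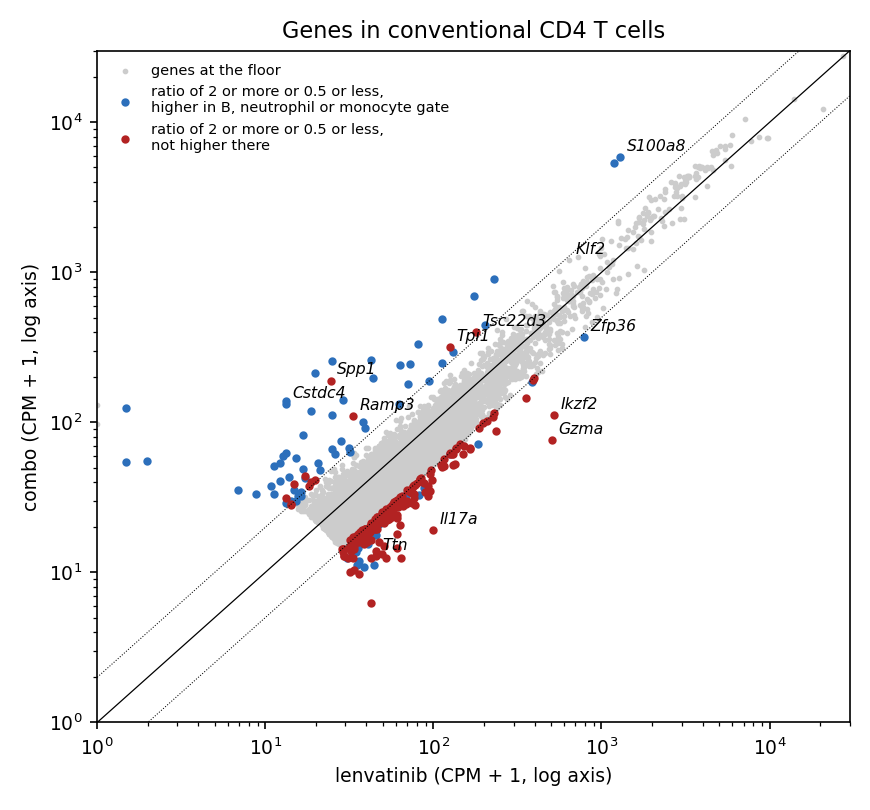
Level of each of 5536 genes in conventional CD4 T cells under lenvatinib (x axis) and combo (y axis), as CPM plus 1 on log axes. Dotted lines mark a ratio of 2 and 0.5, and genes past them are blue when over 2 times as high in the B, neutrophil or monocyte gate and red otherwise. Most of the 70 genes above the upper line are blue, and most of the 222 below the lower line are red.

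The highest ratios among genes with at least 10 UMIs in each library were those of genes higher in another gate, many of them neutrophil genes. S100a8, which encodes a calcium-binding protein of neutrophils, stood at 1293 and 5860 CPM, and G0s2, Chil3, Wfdc17, Cstdc4 and Hp, the 5 highest of these, had ratios from 6.69 to 11.4. Of the 10 neutrophil list genes, 9 were at the floor and 8 had a ratio of 2 or more, against 1.26% of all genes. The median of the 9 was 2.43, against 12.8 in CD8 T cells. The sizes of these ratios depended on few cells, since that of S100a8 was 13.99 without its highest cell in each library and 25.7 in cells with at least 2 Cd4 UMIs. In B cells S100a8 stood at 177 and 5633 CPM and in CD8 T cells at 468 and 5998 CPM, so the same genes were higher under combo in cells that should lack them. Cells with over 5% of their UMIs from the 10 neutrophil genes numbered 2 under lenvatinib and 13 under combo, and they held 84.7% and 84.3% of the S100a8 UMIs of all conventional CD4 T cells. All 15 had a Csf3r UMI, a receptor gene of neutrophils, and Scrublet called 0 and 6 of them doublets. Without these cells 35 genes had a ratio of 2 or more in place of 70, and 222 again had 0.5 or less. The neutrophil genes are given here as values of the libraries and are not read as expression of T cells.

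Of the 12 genes not over 2 times as high in the B, neutrophil, or monocyte and macrophage gate, Spp1 and Ramp3 had a ratio over 3. Ramp3 was the more widely detected. Ramp3 (chr11:6658521-6677475, plus strand) encodes a receptor activity-modifying protein that pairs with the calcitonin receptor-like receptor. It stood at 32.4 CPM under lenvatinib and 110 CPM (97.8 to 122) under combo, a ratio of 3.38 (2.58 to 4.48). At 2000 UMIs per cell it was detected in 5.18% and 16.6% of cells, against 0.227% and 0% of B cells. In CD8 T cells it stood at 4.26 and 8.72 CPM, a ratio of 2.05, so it was higher in conventional CD4 T cells in both libraries. Its ratio lay between 2.98 and 3.66 over all alternatives.

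Tpi1, which encodes a glycolytic enzyme, stood at 125 and 316 CPM, a ratio of 2.52 (2.19 to 2.91), and was detected in 18.8% and 39.6% of thinned cells. CD8 T cells had a ratio of 1.67 and B cells a ratio of 0.999. Tsc22d3, which encodes the glucocorticoid-induced leucine zipper, stood at 178 and 397 CPM, a ratio of 2.23 (1.98 to 2.52), with 2.11 in CD8 T cells and 1.35 in B cells, where it was also abundant. Lag3, which encodes an inhibitory receptor of MHC class II, was low, at 12.3 and 30.1 CPM, with a ratio of 2.45 (1.56 to 3.995). The other genes of this set were Gm17056, Nmrk1, 1110038B12Rik, Nosip, Wdyhv1 and Dapl1, with ratios from 2.03 to 2.64 and at most 42.7 CPM. With thinned cells the ratio of 1110038B12Rik was 1.17 and that of Dapl1 1.09, and that of Nosip was 3.86 in cells with at least 2 Cd4 UMIs.

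Spp1 and Gzmc rested on few cells. Spp1, which encodes the secreted protein osteopontin, had 48 and 539 UMIs in 3.32% and 5.62% of cells, a ratio of 8.002, and 1 cell held 54.2% and 43.6% of them. Its ratio was 9.73 without the highest cell in each library, 17.2 with thinned cells and 30.1 without cells with an NK gene UMI. Gzmc, which encodes granzyme C, had a ratio of 2.75, and 1 combo cell held 41.7% of its UMIs. Without the cells that had a UMI of Il2ra, Ikzf4, Lrrc32 or Itgb8, the ratio of Gzmc was 0.599, so it is given no direction.

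Genes of resting cells differed among themselves. Klf2 stood at 641 CPM (606 to 676) and 1211, a ratio of 1.89 (1.77 to 2.02), with 1.36 in CD8 T cells and 1.40 in B cells. Ccr7 had a ratio of 1.53 (1.26 to 1.87), Lef1 of 1.23 (0.989 with thinned cells) and Il7r of 1.27, whereas Tcf7 had 0.816 and Satb1 0.865. Of 9 genes of the list at the floor, 1, Dapl1, reached 2 and 0 lay at 0.5 or less, against 1.26% and 4.01% of all genes. The median of the 9 was 1.27, against 0.850 over all genes and 0.863 for the 9 in CD8 T cells. With thinned cells their median was 1.09.

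Among the 12 genes with the lowest ratio, 4 were detected about as often in B cells under lenvatinib. Gzma, which encodes granzyme A of NK and cytotoxic cells, stood at 504 CPM (474 to 536) under lenvatinib and 74.9 under combo, a ratio of 0.149 (0.128 to 0.172). At 2000 UMIs it was detected in 19.9% of conventional CD4 T cells under lenvatinib and in 19.0% of B cells, and under combo in 7.69% and 3.61%. The ratio in B cells was 0.126, and in CD8 T cells it was 1.35. The Ly49 receptor genes Klra8 and Klra7 and the transcription factor gene Eomes had ratios of 0.184, 0.228 and 0.226, and were detected under lenvatinib in 4.36%, 5.72% and 5.72% of thinned cells, against 4.31%, 4.31% and 4.76% of B cells. All 4 shares lie under the upper 95% bound of the B cell share, so no expression of these genes beyond the level of B cells is read from them under lenvatinib. Gzma was nonetheless unevenly spread, in 57.4% of conventional CD4 T cells with an NK gene UMI and 27.2% of those without (not thinned). The ratio of Gzma was 0.258 without cells with an NK gene UMI and 0.227 with thinned cells, and that of Klra7 was 0.103 with thinned cells. Which cells the UMIs came from was not tested. Of the NK list, 5 of 6 genes lay at 0.5 or less, against 4.01% of all genes, with a median of 0.272. The list includes Klra8, Klra7 and Eomes.

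**Figure D4:**
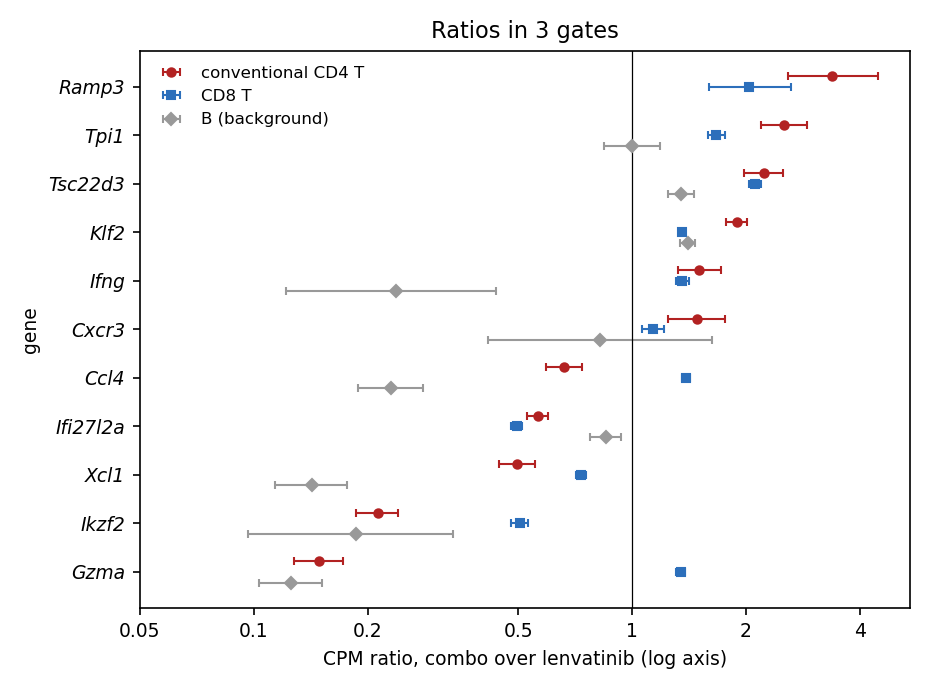
Ratio of CPM, combo over lenvatinib, for 11 genes in conventional CD4 T cells (red), CD8 T cells (blue) and B cells (gray), on a log axis with exact 95% intervals of counting error. B cells are drawn where a gene had at least 10 UMIs. The ratio of Gzma in conventional CD4 T cells, at 0.149, lies by that of B cells, at 0.126, and away from that of CD8 T cells, at 1.35.

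Ikzf2 was lower under combo, from a lenvatinib share above that of B cells. Ikzf2 (chr1:69531214-69687245, minus strand) encodes the transcription factor Helios, found in regulatory T cells and in T cells under chronic stimulation. It stood at 520 CPM (489 to 553) under lenvatinib and 111 (98.8 to 124) under combo, a ratio of 0.213 (0.187 to 0.241). It was detected in 31.3% and 13.6% of thinned conventional CD4 T cells, and in 4.08% and 1.004% of B cells. The ratio in B cells, from a level of 27.3 CPM, was 0.187, and its part in the result was not tested. CD8 T cells held 206 and 104 CPM, a ratio of 0.505, and Foxp3-positive cells 2556 and 1228 CPM. Without thinning, Ikzf2 was detected in 41.6% and 25.8% of conventional CD4 T cells. In T cells without a Cd4 or Cd8 UMI it was detected in 57.8% and 43.4%.

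Other genes of regulatory T cells moved beside it. Ikzf4, which encodes the related factor Eos, stood at 34.9 and 8.75 CPM, a ratio of 0.251 (0.152 to 0.401), and Il2ra, which encodes the interleukin 2 receptor alpha chain CD25, at 63.9 and 28.4 CPM, a ratio of 0.444 (0.332 to 0.591) that was 0.272 without cells with an NK gene UMI. Ctla4 and Tnfrsf18 did not share the direction, at 289.9 and 366 CPM (a ratio of 1.26) and 232 and 329.8 CPM (a ratio of 1.42). Of the 6 genes of this list at the floor, 3 lay at 0.5 or less, Ikzf2 included, with a median of 0.610, against 4.01% of all genes at 0.5 or less. Since Foxp3 can be missed in a cell, a UMI of Il2ra, Ikzf4, Lrrc32 or Itgb8 was counted, and 27.6% of conventional CD4 T cells had one under lenvatinib and 14.5% under combo, against 88.6% and 73.1% of Foxp3-positive cells. Without those cells the ratio of Ikzf2 was 0.388, and the share of the remaining cells among kept cells was 2.00% and 3.80%, a ratio of 1.90 (1.63 to 2.21). How many are regulatory T cells with missed Foxp3 was not tested.

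Il17a had a ratio of 0.184 (0.133 to 0.251), at 98.8 and 18.2 CPM, from 19 cells under lenvatinib and 10 under combo. The intervals of the shares of cells with an Il17a UMI, given above, overlapped. A single cell held 30.3% and 32.7% of its UMIs, and the ratio was 0.178 without the highest cell in each library and 0.0894 in cells with at least 2 Cd4 UMIs. Ttn (0.266), Mmd (0.255), Ikbke (0.279), Klrb1f (0.277) and the unnamed locus Gm28112 (0.126) made up the rest of the 12. Gm28112 (chr1:69660187-69662061, minus strand) lies within Ikzf2 on the same strand, so these 2 genes are not separate observations, and its ratio was 0.3001 without cells with Il2ra, Ikzf4, Lrrc32 or Itgb8. With thinned cells the ratio of Klrb1f was 0.145. Of these Ikbke, which encodes a kinase of interferon induction, was the most widely detected, in 21.4% and 6.59% of cells, and its ratio in CD8 T cells was 0.492.

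Interferon-stimulated genes were lower as a group. All 10 described here had a ratio under 1, with a median of 0.558 against 0.850 over all genes. At 0.5 or less lay 2 of the 10, against 4.01% of all genes. In CD8 T cells the median of the 10 was 0.755. Ifi27l2a, the most abundant, stood at 1020 CPM (977 to 1065) and 575, a ratio of 0.564 (0.528 to 0.602), with 0.496 in CD8 T cells. Isg15, which encodes a ubiquitin-like modifier, stood at 134 and 73.5 CPM, a ratio of 0.548. Ifit1 and Rsad2, both antiviral effector genes, had ratios of 0.433 and 0.432. That of Rsad2 was 0.198 without the cells over 5% neutrophil UMIs and 0.263 in cells with at least 2 Cd4 UMIs. Isg15 and Rsad2 were over 2 times as high in a B, neutrophil or monocyte gate under lenvatinib. Irf7 was the nearest to 1, at 0.940 (0.736 to 1.20). Over the alternatives, their median lay between 0.522 and 0.608, 8 to 10 of the 10 genes stayed under 1, and 2 to 4 lay at 0.5 or less.

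Genes of cytotoxic cells went in several directions. Gzmb had a ratio of 1.38 (0.844 without cells with Il2ra, Ikzf4, Lrrc32 or Itgb8), Gzmk of 1.61 and Fasl of 1.32, whereas Prf1, which encodes perforin, had 0.469 (0.358 to 0.610) and the chemokine genes Xcl1 and Ccl4 had 0.498 and 0.660. In CD8 T cells Gzmb stood at 301 and 893 CPM, a ratio of 2.97, and Ccl4 had 1.39. Of the 11 genes 0 reached 2 and 3 lay at 0.5 or less, with a median of 0.759. Of all genes tested, 1.26% reached 2 and 4.01% lay at 0.5 or less, with a median of 0.850. Without the cells that had an NK gene UMI, Prf1 had a ratio of 1.04, Xcl1 1.06 and Ccl4 1.05, and the median was 1.05, and with thinned cells the median was 1.01. Prf1 was detected in 3.82% of thinned cells under lenvatinib and in 4.99% of B cells, and Xcl1 in 18.3% and 15.4%, both under the upper 95% bound of the B cell share.

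Genes of the pathway that palbociclib inhibits were measured in the same cells, which the rule chose for having few genes of division. The cyclin D2 gene Ccnd2, the most abundant, stood at 580 CPM (548 to 614) and 401, a ratio of 0.691 (0.637 to 0.751), and Cdk6 at 179 and 99.4 CPM, a ratio of 0.556 (0.474 to 0.651). Cdk4, at 45.7 and 57.8 CPM, had an interval that spans 1 (0.975 to 1.65). Rbl1, which encodes the RB relative p107, had a ratio of 0.383 (0.258 to 0.562), and Cdkn2d, which encodes an inhibitor of CDK4 and CDK6, 1.43. Cdk4 and Rbl1 were found in 6.54% and 6.27% of thinned cells under lenvatinib. Of 10 genes at the floor, 0 reached 2 and 1 lay at 0.5 or less, with a median of 0.804. Of all genes tested, 4.01% lay at 0.5 or less. In CD8 T cells Cdk6 had a ratio of 0.946 and Ccnd2 of 0.921. The S-phase list of 10 genes, among them Mcm2 (0.519) and Pcna (0.741), had a median of 0.731, with 9 under 1 and 0 past either fold. Under the median of all genes, 0.850, lay 7 of these 10, and 6 of the 10 pathway genes. Cells with no UMI of the 10 division genes were 61.7% under lenvatinib and 78.9% under combo (not thinned). The rule used these genes, so the shares are a description and not a result.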

How the data were processed

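Sorted live CD45+ cells were profiled in 2 libraries with the 3′ v3 chemistry. The matrices that the authors deposited hold UMI counts, not normalized, with reads mapped to mm10. The submitters' processing notes name Cell Ranger 5.0.1 and the matrix headers 6.0.1. As in the study, barcodes with over 6000 genes or over 25% mitochondrial UMIs were removed (308 and 376). The rule for the cells, the gene lists and the alternatives were chosen with earlier results of these data known. Cells were gated on UMI counts, without clustering. Counts were summed per gate and library and given as CPM with exact Poisson intervals, and ratios with exact conditional intervals. Shares carry Clopper-Pearson 95% intervals (scipy 1.17.1). All intervals cover counting error only. Those of gene levels and their ratios treat each UMI as independent, so they are too narrow where few cells hold many of a gene's UMIs. Genes with a mean of at least 20 CPM were used, and a fold of 2 or 0.5 counted as called, with no test. Doublets were called with Scrublet (scanpy 1.11.5, expected rate 6%) and left out only in an alternative. The named genes were the label markers, list members, the 12 highest and 12 lowest ratios with at least 10 UMIs in each library, without mitochondrial, ribosomal, hemoglobin, T cell receptor and immunoglobulin genes, and, named apart, the 5 highest ratios among genes over 2 times as high in a B, neutrophil or monocyte gate, and the 10 highest ratios over CD8 T cells. Gene coordinates are from GENCODE M21. The steps were tested on simulated data, in which the UMIs of each gene were drawn independently. The list symbols Znf683 and Mx1 matched no gene name in the matrix and were not used, and the mouse gene Zfp683 was not analysed here. Some planned results and list genes are not reported here.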

Additional observations from a re-analysis of the deposited data

Results flagged for a closer look

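Gzma and Dapl1 differed in direction between conventional CD4 T cells and CD8 T cells, with intervals of counting error on opposite sides of 1. They are not all such genes, since Ccl4, described above, also had ratios on opposite sides of 1. The difference between the cell types was not tested, since each treatment has 1 library. The ratio of Gzma, combo over lenvatinib, was 0.149 in conventional CD4 T cells and 1.35 (1.31 to 1.38) in CD8 T cells, beside 0.126 in B cells. The ratio of Dapl1, a gene of naive and resting T cells, was 2.03 (1.30 to 3.28) and 0.910 (0.844 to 0.980), from 27 and 77 UMIs in conventional CD4 T cells, and it was 1.09 with cells thinned to 2000 UMIs.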

How the results depend on the processing

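No paired analysis was possible because each treatment had 1 library, and no replicate could be left out. The ratio of the share of kept cells stayed over 1 in every alternative: it was 1.37 with all cells thinned before the gate, 1.91 without cells with an NK gene UMI, 1.90 without cells with Il2ra, Ikzf4, Lrrc32 or Itgb8, and between 1.58 and 1.75 in the others. Of gated T cells it was 1.47 with thinning, 2.11 without NK gene cells, 2.10 without the Il2ra, Ikzf4, Lrrc32 or Itgb8 cells, and between 1.75 and 1.85 in the others. The ratio for Cd40lg, Tnfrsf4 or Icos stayed within its interval in all alternatives. The count of genes with a ratio of 2 or more was 70 and became 199 with a floor of 5 CPM, 32 with 50 CPM, 107 without mitochondrial, ribosomal and hemoglobin genes, 46 without doublets and 35 without the cells over 5% neutrophil UMIs. The count at 0.5 or less was 222 and became 609 and 60 with floors of 5 and 50 CPM, and 419 with thinned cells, where fewer UMIs stand behind each gene. For the 38 named genes, 289 ratios under alternatives stayed within their main interval, 42 left it, and 8 ratios whose interval excluded 1 turned. Gzmc turned to 0.871 without cells with both Il2ra and Ikzf2, to 0.719 without NK gene cells and to 0.599 without cells with Il2ra, Ikzf4, Lrrc32 or Itgb8. Ccl1 turned to 1.41 with thinning, 14.1 without NK gene cells, 7.14 without the Il2ra, Ikzf4, Lrrc32 or Itgb8 cells and 1.55 without its highest cell. Cd40lg turned to 0.9997 without NK gene cells. Tnfrsf4, whose interval spans 1, went from 1.10 to 0.958 without NK gene cells and to 1.75 without the Il2ra, Ikzf4, Lrrc32 or Itgb8 cells. The alternatives on neutrophil, NK and regulatory genes and on the highest cell were chosen after seeing the data.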

Other observations

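Several gene groups of the conventional CD4 T cells were not described above. Genes of signaling through the common gamma chain, which serves the receptors of interleukins 2, 4, 7, 15 and 21, had a median ratio of 0.842 over 13 genes at the floor, and 0 lay past either fold. The largest decrease was that of Cish, a feedback inhibitor of STAT5, at 273 and 142 CPM, a ratio of 0.521 (0.457 to 0.594), against 0.939 in CD8 T cells. Il2rb had a ratio of 0.630 and the kinase gene Pim1 of 0.627, whereas Il7r had 1.27 and Socs3 1.43. Among immediate early genes, 1 of 11 lay at 0.5 or less, namely Zfp36, which encodes an mRNA-destabilising protein, at 783 and 370 CPM (a ratio of 0.473). The median of the 11 was 1.10. Over all genes the median was 0.850, with 4.01% at 0.5 or less and 1.26% at 2 or more.

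Chemokine receptor genes had a median of 0.757 over 7 genes, with Ccr2 lowest at 0.506 (0.423 to 0.604) and Ccr7 and Cxcr3 over 1. Among tissue retention genes 1 of 7, Itga1 at 43.2 and 19.96 CPM, lay at 0.5 or less, against 4.01% of all genes. The median of the 7 was 0.971. Pdcd1, which encodes PD-1, stood at 32.9 and 61.6 CPM, a ratio of 1.87 (1.41 to 2.52), with 2.26 in CD8 T cells, and Tox at 149 and 111 CPM. The 6 inhibitory receptor and Tox genes at the floor had a median of 1.21, the 4 follicular helper genes 1.17, and the 12 T cell identity genes 0.875. The innate-like list had a median of 0.728 over 6 genes, and without cells with an NK gene UMI the 4 genes left had a median of 1.77, with Fcer1g at 2.60 and Tyrobp at 2.21. In all cells Fcer1g and Tyrobp had ratios of 1.045 and 1.146. Without the cells over 5% neutrophil UMIs these were 0.7982 and 0.7435, and all 6 genes of the list lay under 1, with a median of 0.678. The list as a whole is thus given no direction. The T helper 2 and T helper 17 lists had 2 genes each at the floor.

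The ratios of dendritic cell genes depended on the highest cells. A UMI of the dendritic list was found in 208 conventional CD4 T cells under lenvatinib and 210 under combo. H2-Ab1, H2-Aa and Cd74, the 3 dendritic list genes at the floor, had ratios of 0.407, 0.470 and 0.385, and 1 lenvatinib cell held 54.2%, 56.5% and 50.3% of their UMIs. Without the highest cell in each library the median of the 3 was 0.793. Lyz2 and Apoe, the macrophage list genes at the floor, had ratios of 4.16 and 2.72, with 69.5% of the Apoe UMIs in 1 combo cell, without which the ratio of Apoe was 0.885. The 3 B and plasma cell genes had a median of 1.49. No gene of the gamma-delta T, hepatocyte or erythroid lists reached the floor.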
